A study of Mus musculus with 4 samples.

Results

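The genes described here were 5 Fgf ligands (Fgf1, Fgf2, Fgf7, Fgf9 and Fgf18) and 5 Fgf receptors (Fgfr1, Fgfr2, Fgfr3, Fgfr4 and Fgfrl1). They were chosen by name, with earlier results of these data known. All 10 were found by Ensembl identifier among the 50488 identifiers listed in all 4 libraries, and all 10 had at least 10 counts over each pair of libraries. The libraries were poly-A RNA-seq libraries from mice that all carried floxed Cbfb alleles, with 1 library per condition. The hip control was a Cbfβf/f sample without Cre whose treatment is labelled as none, and the hip Cbfb-deficient library came from Cbfβf/f;Col2α1-CreERT mice given tamoxifen (TMX), so by these labels Cre, TMX and the loss of Cbfb cannot be told apart in the hip. The knee control was an oil-injected Cbfβf/f;Aggrecan-CreERT sample, and the knee Cbfb-deficient library came from TMX-injected mice of that genotype. Col2α1-CreERT and Aggrecan-CreERT are tamoxifen-inducible recombinases driven by the type II collagen and the aggrecan promoter, so deletion is directed to cells in which those promoters are active. The mice were 6 weeks old for the hip and 12 weeks old for the knee by the figure legends, and the running text of the study gives another age for the hip. Whether a library held 1 mouse or a pool is not given in the sources used here.

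Fgf ligands are secreted proteins that bind heparan sulfate in the matrix and activate receptor tyrosine kinases on the cell surface, whose signal runs through Frs2, Ras and the Erk kinases to Etv transcription factors, and is limited by Sprouty proteins and Dusp phosphatases. In cartilage, Fgfr3 is the receptor known for restraining chondrocyte proliferation in the growth plate, Fgf18 is a chondrocyte and perichondrial ligand that acts through it, and Fgf2 is stored in the pericellular matrix of articular cartilage. Cbfb is the partner of the Runx transcription factors, which bind a short DNA motif.

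Promoter sequence was read for the members because Cbfb acts through Runx factors. The Runx letters TGTGGT or TGCGGT, searched on both strands, were present in 7362 of 32851 RefSeq windows of 300 bases, 250 before and 50 after a gene's start, which is 22.4%. The table held 9 such windows for 8 of the members, and 1 of the 9 held the letters, that of Fgf2. The 250 bases before the start are shown for the 3 ligands whose ratios stood farthest from 0 in the hip pair, from RefSeq on GRCm38.p6, 5′ to 3′ on the gene's strand, with the Runx letters in capitals. They lie at chr3:37348403-37348652 on the plus strand for Fgf2, at chr14:58072436-58072685 on the plus strand for Fgf9 and at chr11:33147401-33147650 on the minus strand for Fgf18.
Fgf2: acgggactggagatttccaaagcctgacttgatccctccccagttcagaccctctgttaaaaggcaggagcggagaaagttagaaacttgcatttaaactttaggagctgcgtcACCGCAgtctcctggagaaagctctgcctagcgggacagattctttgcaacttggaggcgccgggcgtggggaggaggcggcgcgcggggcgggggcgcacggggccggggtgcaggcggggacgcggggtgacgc
Fgf9: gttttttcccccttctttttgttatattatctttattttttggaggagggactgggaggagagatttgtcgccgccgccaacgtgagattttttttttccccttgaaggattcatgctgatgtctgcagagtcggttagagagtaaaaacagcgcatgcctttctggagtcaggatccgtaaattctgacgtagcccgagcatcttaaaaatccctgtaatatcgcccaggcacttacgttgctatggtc
Fgf18: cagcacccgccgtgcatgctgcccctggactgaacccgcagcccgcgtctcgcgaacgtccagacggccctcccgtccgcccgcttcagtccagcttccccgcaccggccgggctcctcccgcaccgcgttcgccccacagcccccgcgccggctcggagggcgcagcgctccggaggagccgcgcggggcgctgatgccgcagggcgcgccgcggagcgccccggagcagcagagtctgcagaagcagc
The match in Fgf2 is TGCGGT on the minus strand, and the first of the capitals as printed is at position -136 from the start. The windows of Fgf9 and Fgf18 hold neither spelling. A match of letters is a description of the sequence and not a measured binding site.

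The libraries held 34264456 to 38473120 counts on genes, and 3 counts, the limit that a count of 0 allows, came to 0.0780 to 0.0876 CPM, counts scaled to a common total per library. Hip and knee tables list different numbers of genes, 50686 and 54838, and were scaled apart, so levels set across joints may carry a difference in counting. Cbfb, the targeted gene, had 2548 counts in the hip control and 2946 in the hip deficient library, and 3796 and 4572 counts in the knee pair. On the log2 scale the deficient library stood at 0.37 against its control in the hip and at -0.08 in the knee. Counts over the whole gene do not test for a deleted exon, so these values do not check the labels. The tissue is labelled articular cartilage in all libraries, while the note on RNA extraction names osteoblasts. Col2a1, the main cartilage collagen, was read 354 and 228 times in the hip control and deficient libraries, against 87367 and 33204 times in those of the knee, and the 13 chondrocyte markers summed to 191 and 85.6 CPM in the hip against 5665 and 2372 CPM in the knee. The 12 skeletal muscle markers took 16.1% and 16.3% of counts in the hip pair and 1.01% and 2.45% in the knee pair. The hip libraries were thus rich in muscle RNA and poor in cartilage RNA. In such bulk samples, fewer cells of a type and less RNA per cell cannot be told apart.

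With 1 library per condition, no test was possible within a joint, and each ratio compares 2 libraries. Each is the log2 ratio of the deficient over the control library after scaling for composition, followed in brackets by its 95% interval, which covers counting error only and not the difference between mice. A gene was called where the ratio was at least 1 in size and its interval excluded 0. In the hip pair, 1 of the 10 members was called higher and 3 were called lower, where 19.6% of all genes with at least 10 counts were called higher and 16.9% lower. In the knee pair, 3 members were called higher and 0 lower, against 8.96% and 6.92% of all genes. Taken over both directions, 4 of 10 members in the hip stood beside 36.5% of all genes, and 3 of 10 in the knee beside 15.9%. The median ratio of the members was 0.20 in the hip and 0.80 in the knee, beside medians of all genes of -0.02 and 0.01. Fgf2 was the only member called in the same direction in both joints under this scaling.

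**Figure D1:**
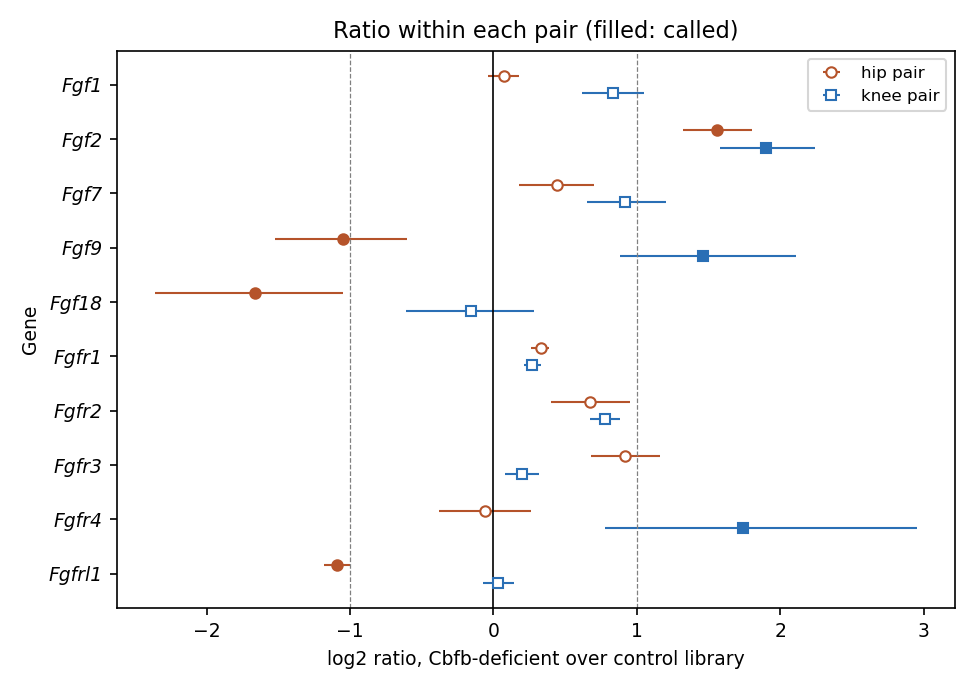
The log2 ratio of the Cbfb-deficient over the control library (horizontal axis) is drawn for each of the 10 genes (vertical axis), as circles for the hip pair and squares for the knee pair, with bars for the 95% counting interval and filled symbols for called genes. Fgf2 lies above 1 in both pairs, Fgf9 lies at -1.05 in the hip and 1.46 in the knee, and 8 of the 10 knee intervals lie above 0, where 31.6% of the knee intervals of all genes do.

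Fgf2, basic fibroblast growth factor (ENSMUSG00000037225, GRCm39 chromosome 3, 37402473 to 37464257), had 206 counts in the hip control and 542 in the hip deficient library, or 5.35 and 15.7 CPM. It had 95 counts in the knee control and 451 in the knee deficient library, or 2.77 and 11.8 CPM. Both deficient libraries were above both controls. The log2 ratio was 1.56 [1.32, 1.80] in the hip and 1.90 [1.58, 2.24] in the knee, and both were called. Removal of the trend of ratios over exon length and GC content lowered the hip value to 0.95, below the calling size, and left the knee value at 1.86.

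Fgf2 shares 3073 exon bases, 44.9% of its 6837, with Nudt6, a nudix hydrolase gene transcribed from the opposite strand and long known as the Fgf2 antisense gene. Whether the counting used strand is not given in the sources used here, so reads in the shared bases cannot be assigned to one of them with certainty. Nudt6 had 253 and 142 counts in the hip pair, for a ratio of -0.67 [-0.98, -0.37], and 27 and 121 counts in the knee pair, for a ratio of 1.80 [1.21, 2.48]. It stood lower in the hip deficient library, where Fgf2 stood higher, and higher in the knee deficient library, where Fgf2 stood higher too. With the counts of the pair of genes summed, the ratio was 0.74 [0.57, 0.91] in the hip, which is not called, and 1.88 [1.60, 2.18] in the knee. Nudt6 was taken up after its values were seen.

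Fgf1, the acidic fibroblast growth factor that binds every Fgf receptor kinase (ENSMUSG00000036585, chromosome 18, 38971717 to 39077186), was the ligand with the highest level per exon length in both hip libraries. It had 1331 and 1250 counts in the hip control and deficient libraries, 34.6 and 36.1 CPM, and its ratio of 0.07 [-0.04, 0.18] included 0. In the knee it had 258 and 584 counts, 7.53 and 15.3 CPM, with a ratio of 0.83 [0.62, 1.05] that did not reach the calling size. Both hip libraries were above both knee libraries, as the summed level of the muscle markers was, though not each marker (Tnnc2 was at 1.07 and 1.47 CPM in the hip and 3.12 and 4.68 CPM in the knee). The part of muscle in this order was not tested.

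Fgf7, the keratinocyte growth factor made by fibroblasts for epithelial cells (ENSMUSG00000027208, chromosome 2, 125876578 to 125934218), had 229 and 277 counts in the hip pair, 5.95 and 8.01 CPM, and 156 and 376 counts in the knee pair, 4.55 and 9.84 CPM. The ratios were 0.44 [0.18, 0.70] in the hip and 0.92 [0.65, 1.20] in the knee, and neither was called. Without the trend over length and GC content the hip value was -0.31, the opposite sign, and the knee value reached 1.03. With scaling by library size alone the knee value was 1.11. Summed fibroblast markers were 194 and 85.0 CPM in the hip and 468 and 498 CPM in the knee. In the hip, 4 of 5 were called lower, beside 16.9% of all genes, and Pdgfra was at 0.84, and the part of fibroblasts in the Fgf7 values was not tested.

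Fgf9, a ligand known from joint and limb skeletal development (ENSMUSG00000021974, chromosome 14, 58308004 to 58350316), had 137 counts in the hip control and 59 in the hip deficient library, or 3.56 and 1.71 CPM. It had 30 and 106 counts in the knee control and deficient libraries, or 0.876 and 2.77 CPM. The deficient library was thus the lower one in the hip and the higher one in the knee. The ratios were -1.05 [-1.52, -0.60] and 1.46 [0.88, 2.11], both called, and they kept sign and call with library size alone, DESeq2 size factors, 2 counts added and the trend removed, from -1.43 to -1.03 in the hip and from 1.41 to 1.65 in the knee. The difference between the joints was not tested, and joint cannot be told apart here from age, Cre line and kind of control.

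Fgf18, the cartilage anabolic ligand (ENSMUSG00000057967, chromosome 11, 33067014 to 33097828), had 97 and 27 counts in the hip control and deficient libraries, 2.52 and 0.781 CPM, and 82 and 93 counts in the knee, 2.39 and 2.43 CPM. The hip deficient library stood below the other 3, which lay between 2.39 and 2.52 CPM. The ratio was -1.66 [-2.36, -1.05] in the hip, called, and -0.16 [-0.61, 0.28] in the knee. The hip value was -0.98 without the trend over length and GC content, just under the calling size. Beside it, 8 of 12 measured chondrocyte markers in the hip had intervals below 0, as 34.9% of all genes had. Of the 12, 5 were called lower and 0 higher, beside 16.9% and 19.6% of all genes. Sox9 at 0.74 and Hapln1 at 0.99 had intervals above 0. Without the trend, Sox9 was at 0.93, Hapln1 at 0.08 [-0.51, 0.70] and Col9a2 at 1.06 [0.55, 1.57]. Summed tendon markers in the hip were 314 and 66.4 CPM, of which Fmod was 287 and 49.9 CPM. Of these 4 markers, 2 were called lower, beside 16.9% of all genes, Fmod at -2.51 and Tnmd at -2.28. Scx was at -0.44 and Mkx at 0.95. In the knee, 10 of 13 chondrocyte markers were called lower, beside 6.92% of all genes, while Fgf18 was not. The part of these cell types in the Fgf18 value was not tested.

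**Figure D2:**
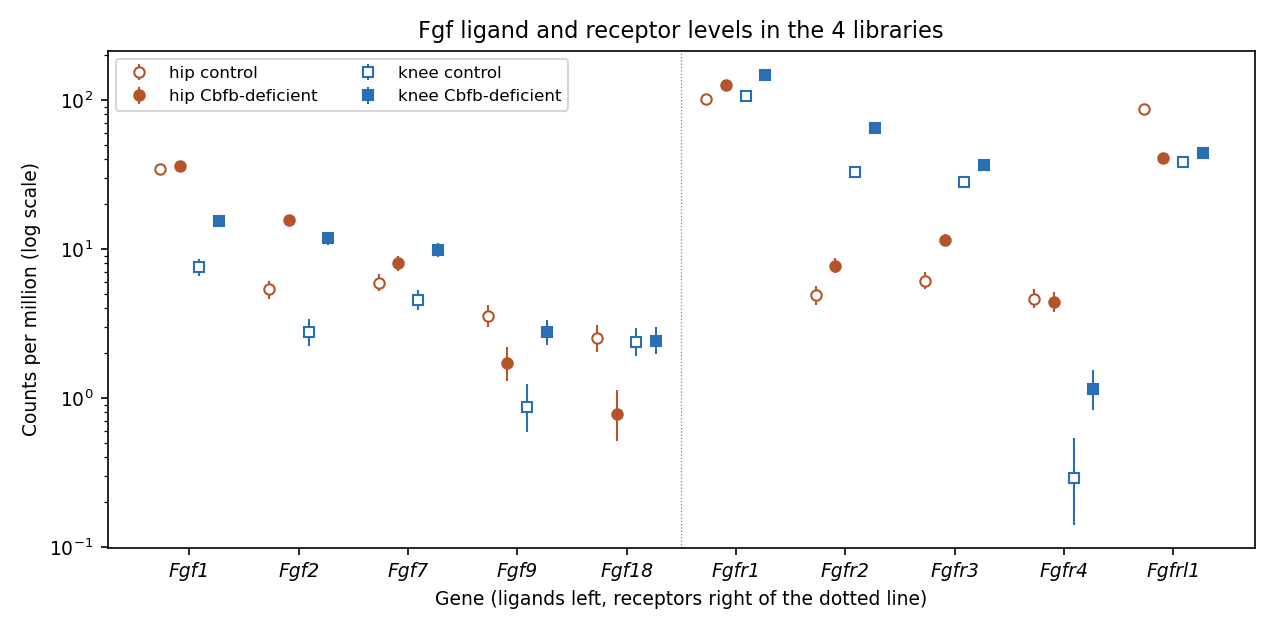
Levels in CPM on a log axis are drawn for the 5 ligands and 5 receptors in the 4 libraries, open symbols for controls and filled symbols for Cbfb-deficient libraries, with bars for the 95% counting interval. Fgfr1 is at 102 to 147 CPM in every library, Fgfr2 and Fgfr3 are higher in both knee libraries than in both hip libraries, and Fgfr4 is lowest in the knee control at 0.292 CPM.

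Among the receptors, Fgfr1, the kinase most widely expressed in mesenchymal cells (ENSMUSG00000031565, chromosome 8, 26003670 to 26066824), had the highest counts of the 10 members in all 4 libraries. It had 3920 and 4392 counts in the hip pair, 102 and 127 CPM, and 3665 and 5612 counts in the knee pair, 107 and 147 CPM. The deficient library was the higher one in each pair, with ratios of 0.33 [0.26, 0.39] and 0.27 [0.21, 0.33], far from the calling size, and the knee value was -0.01 without the trend over length and GC content. Of the summed level per exon length of the 4 receptor kinases, Fgfr1 made up 78.6% and 76.9% in the hip pair and 57.5% and 53.2% in the knee pair.

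Fgfr2, whose splice forms serve epithelial and skeletal cells (ENSMUSG00000030849, chromosome 7, 129763471 to 132725079), had 188 and 268 counts in the hip pair, 4.89 and 7.75 CPM, and 1135 and 2468 counts in the knee pair, 33.1 and 64.6 CPM. The ratios of 0.67 [0.40, 0.95] and 0.78 [0.67, 0.88] lay above 0 in both pairs without being called. Gene counts do not separate its splice forms, and the annotated gene reaches into Ctbp2 on the same strand, with which it shares 314 exon bases, or 2.77% of its own. Fgfr2 took 4.25% and 5.29% of the kinase level in the hip pair and 20.1% and 26.4% in the knee pair.

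Fgfr3, the growth plate receptor (ENSMUSG00000054252, chromosome 5, 33879018 to 33894412), had 236 and 398 counts in the hip pair, 6.13 and 11.5 CPM, and 965 and 1405 counts in the knee pair, 28.2 and 36.8 CPM. Its ratio was 0.92 [0.68, 1.16] in the hip, and this became 1.11, past the calling size, without the trend over length and GC content. In the knee it was 0.20 [0.08, 0.32], or -0.02 without the trend. The knee level of Fgfr3 was thus not lower in the deficient library under the main scaling, while the 13 chondrocyte markers beside it summed to less than before, from 5665 to 2372 CPM, and Col2a1, the marker that makes up much of that sum, stood at -1.74. Acan at 0.35 and Comp at 0.05 stood above 0, as Fgfr3 did. An unclassified gene on the opposite strand, G630022F23Rik, shares 13.1% of the exon bases of Fgfr3.

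Fgfr4, the receptor of liver and of regenerating muscle (ENSMUSG00000005320, chromosome 13, 55300352 to 55316572), had 179 and 153 counts in the hip pair, 4.65 and 4.42 CPM, against 10 and 44 in the knee, 0.292 and 1.15 CPM. The hip ratio of -0.06 [-0.38, 0.26] included 0 and turned to 0.51 without the trend over length and GC content. The knee ratio was called at 1.74 [0.78, 2.95], on the fewest counts of any called value among the members. In the knee pair all 12 skeletal muscle markers had intervals above 0 and 8 were called higher, beside 31.6% and 8.96% of all genes, and their summed share was 1.01% and 2.45% of counts. The myogenic precursor markers Pax7, Myf5, Myod1 and Myog summed to 5.11 and 10.5 CPM. Myf5 had 2 and 23 counts and was the one called, through the deficient library alone, Myod1 was at 0.89, and the intervals of Pax7 at 0.08 and Myog at 0.55 included 0. Whether muscle content plays a part in the knee value of Fgfr4 was not tested.

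Fgfrl1, a receptor without a kinase domain that binds Fgf ligands and heparan sulfate (ENSMUSG00000008090, chromosome 5, 108840206 to 108858366), had 3362 counts in the hip control and 1415 in the hip deficient library, 87.4 and 40.9 CPM. The knee libraries had 1305 and 1695 counts, 38.1 and 44.3 CPM. The hip control stood apart from the other 3 libraries, which lay between 38.1 and 44.3 CPM. The hip ratio was called at -1.09 [-1.18, -1.00] and the knee ratio of 0.03 [-0.07, 0.14] included 0. The hip value was -0.85 without the trend over length and GC content, so the call rests on a ratio close to the calling size.

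**Figure D3:**
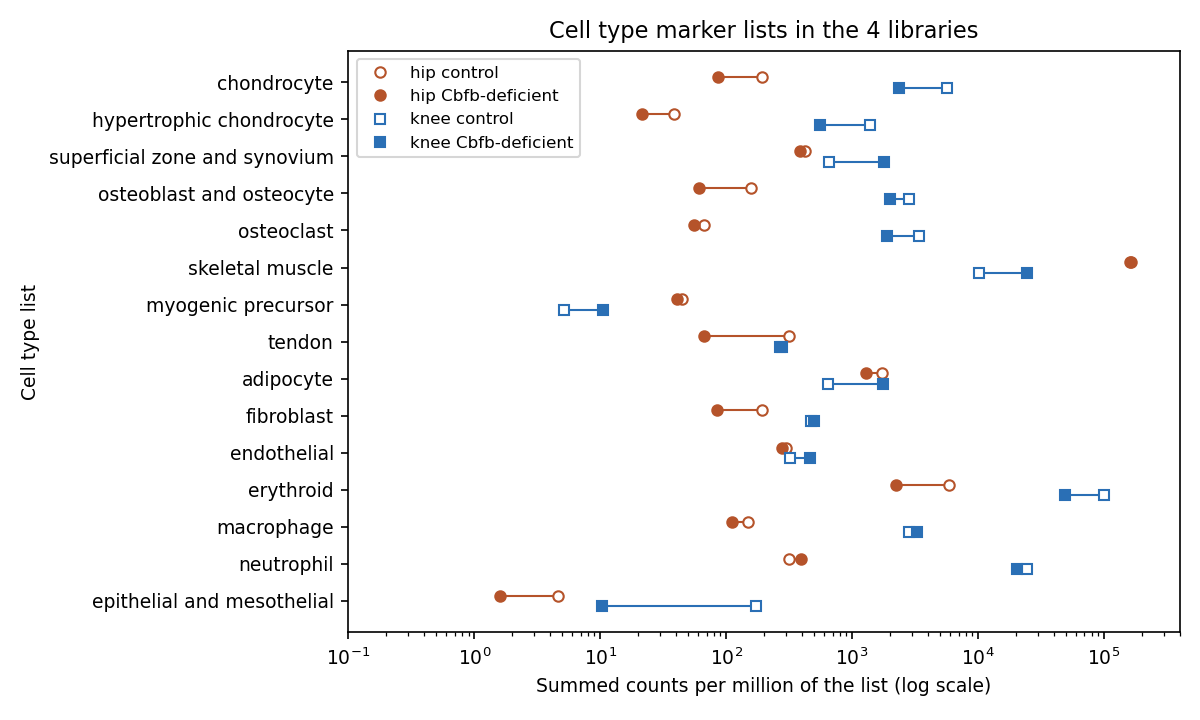
Summed CPM of 15 cell type marker lists are drawn on a log axis for the 4 libraries, with open symbols for controls, filled symbols for Cbfb-deficient libraries and a line joining each pair. In the knee pair the chondrocyte sum goes from 5665 to 2372 CPM and the skeletal muscle sum from 10105 to 24481 CPM, while in the hip pair the muscle sum is 160998 and 163490 CPM.

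Other cell type lists differed between the knee libraries as well, in both directions. In the knee pair, the superficial zone and synovium markers summed to 658 and 1797 CPM, with Prg4 at 10157 and 36604 counts, and 3 of 5 were called higher, beside 8.96% of all genes. Adipocyte markers took 0.0640% and 0.176% of counts, erythroid markers took 9.97% and 4.92%, and epithelial and mesothelial markers summed to 173 and 10.3 CPM. Called higher were 4 of 6 adipocyte markers, beside 8.96% of all genes. Called lower were 4 of 7 erythroid and 8 of 9 epithelial and mesothelial markers, beside 6.92% of all genes. The erythroid marker Alas2 was at 0.17 and the epithelial marker Epcam at -0.08. Osteoclast markers summed to 3415 and 1902 CPM and hypertrophic chondrocyte markers to 1398 and 557 CPM. Over the 15 lists, the one marker at 0 in both libraries of a pair was Krt5 in the hip. The part of these cell types in the ligand and receptor values was not tested.

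Levels of different genes were compared per exon length, as CPM per kilobase of merged exons of GENCODE M39. The gene models behind the deposited counts may differ from these, and the order and the shares depend on them. In the hip control the order began with Fgfrl1 at 12.3, Fgfr1 at 7.98 and Fgf1 at 4.09. In the hip deficient library Fgfr1 came first at 9.94, above Fgfrl1 at 5.78 and Fgf1 at 4.27. Fgf18 at 0.353 and Fgf9 at 0.299 closed that order, with counting intervals that met. In the knee, Fgfr1 led at 8.37 and 11.5 and Fgfrl1 followed at 5.38 and 6.26, in the control and the deficient library. In the knee control, Fgfr3 at 3.19 and Fgfr2 at 2.92 had intervals that met, as had Fgf18 at 1.08, Fgf7 at 1.04 and Fgf1 at 0.890 in sequence, and Fgf9 at 0.154 with Fgfr4 at 0.0660. Of the summed level of the 5 ligands, Fgf2 made up 9.80% in the hip control and 25.4% in the hip deficient library, and 11.4% and 23.5% in the knee pair. The share of Fgf18 was 14.3% and 3.91% in the hip pair and 30.4% and 15.0% in the knee pair. The deficient library had the larger Fgf2 share in both joints. The knee level of Fgf18 itself was 1.08 and 1.10, so its smaller knee share went with higher levels of the other ligands.

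Over both pairs, with joint as the block, 0 of 17594 genes passed an adjusted p of 0.05 in edgeR's quasi-likelihood test with Benjamini-Hochberg adjustment, which is 0% of the genes tested. The fit had 1 residual degree of freedom, so its error is how far the 2 joints differ in their ratios. At an unadjusted p under 0.05 it gave 1044 of the 17594 genes, and DESeq2 called 46 genes, or 0.261%, after adjustment. Fgf2 was at 1.64 on the log2 scale, higher in 2 of 2 deficient libraries, with an unadjusted p of 0.00531 and an adjusted p of 0.760 in edgeR's quasi-likelihood test, and its adjusted p ranged from 0.192 to 1.00 over the alternatives. The other 9 members had adjusted p-values of 0.817 to 0.984 in the edgeR fit. Fgfr2 was at 0.64, Fgfr1 at 0.21, Fgfrl1 at -0.62 and Fgf18 at -0.99. The value of Fgf9 over both pairs was 0.10, between its hip and knee values of opposite sign.

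The genes whose levels followed each member most closely over the 4 libraries were taken by root mean square (RMS) distance of centred log2 CPM among 15471 genes. For Fgf2 they were Ccdc167, Vps13c and Usp33, at distances of 0.114, 0.125 and 0.131. Vps13c, a lipid transfer protein gene, was at 527 and 1222 counts in the hip pair and at 259 and 912 in the knee pair. For Fgfr1 they were Fbxw11, Fam76a and Snx14, at 0.0136 to 0.0232, and for Fgfr2 Ceacam1, Mmrn1 and Fut4, at 0.0171 to 0.0745. For Fgfr3 they were Parp9, Strn and Reep3, at 0.0261 to 0.0305, and for Fgfrl1 Mrpl4, Scg3 and Rtn4ip1, at 0.0306 to 0.0504. For Fgf1 they were Gadl1, Tpbgl and Sec61a2, at 0.0447 to 0.0586, and for Fgf7 Kdm3b, Cmklr2 and Map3k12, at 0.00989 to 0.0427. With 4 points per gene, such closeness is a description only, and the points share library and depth.

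Of the 13 other Fgf ligands, 9 had at least 10 counts in the hip pair, where 3 were called lower and 0 higher beside 16.9% and 19.6% of all genes, and 5 had at least 10 counts in the knee pair, where 4 were called higher and 0 lower beside 8.96% and 6.92%. Several passed this minimum only through the library in which they were higher, so these counts are given without weight on their direction. With at least 10 counts in each knee library, Fgf3 at 0.23 and Fgf10 at 1.37 remained. Fgf6, a ligand of muscle, had 8 and 46 counts, Fgf10, a mesenchymal ligand, had 10 and 34, and Fgf16, a ligand of the heart, had 2 and 18. Fgf23, the phosphate hormone of bone, had 0 counts in the knee control and 35 in the knee deficient library. In the hip, Fgf4, an embryonic ligand, had 20 and 0 counts, and Fgf5, a ligand of hair follicles, had 15 and 0 counts. Fgf22, a ligand of nerve and skin, had 57 and 9 counts in the hip pair, a ratio of -2.44 [-3.70, -1.48], but it shares 81.7% of its exon bases with Rnf126 on the opposite strand. Apart from Fgf22, these genes and Fgf14 were taken up after their values were seen. The 4 intracellular Fgf homologous factors modulate sodium channels and are not secreted. In the hip, 3 of them had at least 10 counts and 0 were called, beside 36.5% of all genes. In the knee, 1 of 4 was called higher, beside 8.96% of all genes. This gene, Fgf14, had 0 and 10 counts, passed the minimum only through the deficient library, and shares 51.5% of its exon bases with Itgbl1 on the opposite strand.

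**Figure D4:**
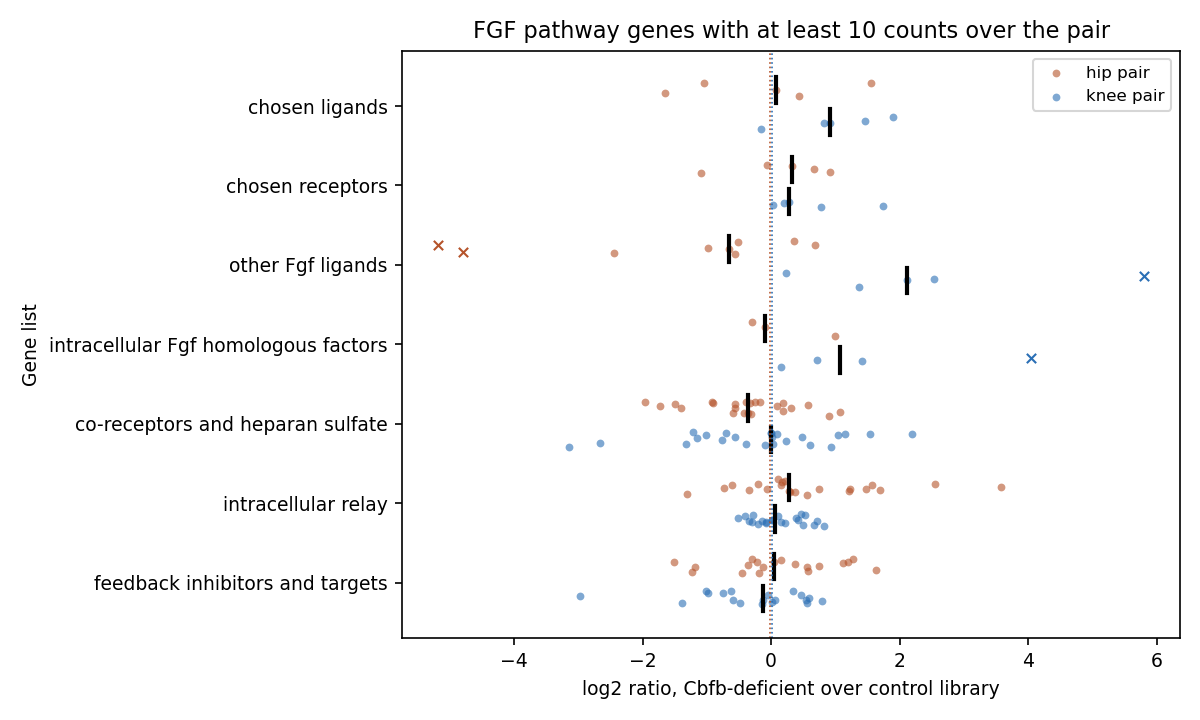
Each dot is the log2 ratio (horizontal axis) of 1 gene with at least 10 counts over the pair, by gene list (vertical axis), orange for the hip and blue for the knee, with a black bar at the list median, crosses for genes with a library at 0 and dotted lines at the medians of all genes. The 22 relay genes have medians of 0.29 in the hip and 0.06 in the knee, and the 5 chosen ligands medians of 0.07 and 0.92.

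Co-receptors and heparan sulfate genes, which hold Fgf ligands at the cell surface, had 1 of 23 called higher and 4 lower in the hip, with a median of -0.36, and 4 of 24 higher and 6 lower in the knee, with a median of -0.01. Of all genes, 19.6% were called higher and 16.9% lower in the hip, and 8.96% higher and 6.92% lower in the knee, and these shares are the background of each list. Without the trend over length and GC content, 0 were called higher and 4 lower in the hip pair, and 2 higher and 5 lower in the knee pair. Flrt1, a membrane partner of Fgf receptors, was called lower in both pairs, with 87 and 23 counts in the hip, a ratio of -1.73 [-2.49, -1.08], and 60 and 30 in the knee, a ratio of -1.33 [-2.03, -0.69]. Also called lower in the hip were Sdc1, the syndecan-1 core protein, at -1.50 [-1.78, -1.24], or -0.98 without the trend, and Fgfbp1, a carrier that releases Fgf2 from heparan sulfate, at -1.40 [-2.21, -0.69]. In the knee, Hs6st2, a heparan sulfate sulfotransferase, had 219 and 31 counts, a ratio of -3.15 [-3.76, -2.62], and the glypican Gpc6 had 87 and 322, a ratio of 1.54 [1.20, 1.90]. Fgfbp1 was called lower in the knee as well, at -1.22 [-2.09, -0.41], and so was Flrt3, taken up after its values were seen, at -1.97 in the hip and -1.02 in the knee. Without the trend their knee values were -0.95 and -0.99, which are not called.

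The 22 genes of the intracellular relay had 7 called higher and 1 lower in the hip, with a median of 0.29, and 0 called in either direction in the knee, with a median of 0.06. The background was 19.6% higher and 16.9% lower in the hip pair and 15.9% called in the knee pair. In the hip, Pik3r1, a regulatory subunit of phosphoinositide 3-kinase, had 681 and 7247 counts, a ratio of 3.57 [3.46, 3.69], and Braf, a kinase that acts below Ras, had 97 and 511, a ratio of 2.55 [2.24, 2.89]. Pik3ca, the catalytic subunit, had 750 and 2165 counts, a ratio of 1.69 [1.57, 1.81]. Without the trend over length and GC content, 2 of these genes stayed called higher in the hip and 0 lower, where 29.4% of all genes were called, Pik3r1 at 2.92 and Braf at 1.51, while Pik3ca was at 0.77.

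Of the 20 feedback inhibitors and targets, genes that Fgf signals commonly induce, 19 were matched to an identifier. They had 4 of 19 called higher and 3 lower in the hip, with a median of 0.04, and 0 higher and 3 lower in the knee, with a median of -0.13. The hip counts stood near the background of 19.6% and 16.9%, and without the trend over length and GC content they were 4 higher and 1 lower. The knee background was 8.96% higher and 6.92% lower. Etv4, a transcription factor that responds to Fgf signals, had 226 and 36 counts in the knee, a ratio of -2.98 [-3.54, -2.48], and Dusp5, an Erk phosphatase, had 630 and 304, a ratio of -1.39 [-1.60, -1.20]. Cdkn1a, the cell cycle inhibitor p21, was at -1.01 [-1.11, -0.91] in the knee and at 1.28 [1.19, 1.37] in the hip. In the hip, Fos, an immediate early gene, had 740 and 2046 counts, a ratio of 1.63 [1.51, 1.75], and Ccnd1, cyclin D1, had 289 and 90, a ratio of -1.52 [-1.88, -1.17]. Over the whole list, 8 of 19 intervals lay above 0 and 6 below in the hip, beside 36.3% and 34.9% of all genes. In the knee, 4 lay above 0 and 9 below, beside 31.6% and 30.0% of all genes. The list thus held members on both sides of 0 in each pair, with more below than above in the knee. Ccnd1 shares 48.4% of its exon bases with a protein-coding gene on the opposite strand.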

How the data were processed

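Poly-A RNA of hip and knee joint tissue was sequenced in 4 libraries. The authors aligned the reads to the mouse genome and deposited counts of reads per Ensembl gene, 1 table per library. The submitters' processing notes name FastQC 0.11.3, STAR 2.0 and the mm10 build, the methods of the study a later build and STAR release, and the hip tables end with summary lines that the knee tables lack, so each pair was scaled alone. These lines, 25.8% and 24.6% of the hip totals, were left out.

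The members and gene lists were chosen with earlier results of these data known. Symbols came from GENCODE M39 (GRCm39), which matched 91.8% of hip and 92.6% of knee identifiers. In each pair, genes with at least 10 counts over both libraries (19856 hip, 21131 knee) were scaled by TMM factors (edgeR 4.0.16, R 4.3.3), 0.5 counts were added for ratios, and 95% Clopper-Pearson intervals (scipy 1.17.1) were taken. They cover counting error only, and so do the floors. Over both pairs, edgeR's quasi-likelihood test was fitted on genes of all 4 tables with joint as the block, with Benjamini-Hochberg adjustment; the pairing comes from the labels' tissue. DESeq2 1.42.0 was the alternative. Nothing in the labels names separate cultures or animals, so p-values measure only the spread between these samples. The scripts were tested on simulated data.

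Genes named were all members, Cbfb, of each further pathway list up to 3 genes a joint with the largest called ratios at a minimum of 50 counts in the larger of both libraries, the 3 nearest genes of each member with at least 50 counts in each library, and cell type markers set beside a result. Genes outside this rule are stated as chosen after their values were seen. One gene of the relay list is not reported here and was left out of that list. The nearest genes were sought above a total of 100 counts over the 4 libraries. Alternatives were library size alone, DESeq2 size factors, a second count added, no filter, a 1.5-fold size, intervals at any size, removal of the running median of ratios over exon length and GC content, and no replicate block. The sum of Fgf2 and Nudt6 was added after seeing the data.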

Additional observations from a re-analysis of the deposited data

Results flagged for a closer look

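Of the 24 members and pathway genes named by rule, 5, or 20.8%, stood on opposite sides of 0 in the hip and the knee, each beyond its counting interval. Other listed genes, such as Fgf6 and Sdc4, did so too and are not listed. Of the 17594 genes measured in both pairs, 20.6% stood on opposite sides in this way, so the share is that of the background. The differences between the joints were not tested, with 1 library per condition. Fgf9 was at -1.05 on the log2 scale in the hip and 1.46 in the knee. Hs6st2 was at 0.90 and -3.15, where the hip value was 0.39 [-0.11, 0.90] without the trend over length and GC content, and Gpc6 at -0.43 and 1.54. Pik3ca was at 1.69 and -0.21. Cdkn1a was at 1.28 and -1.01.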

How the results depend on the processing

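In the hip pair, 4 members were called. With the trend over exon length and GC content removed, 2 were called (1 higher and 1 lower, where Fgf9 stayed called and Fgfr3 was added), beside 29.4% of all genes, and with intervals at any size 8, beside 71.2%. At 1.5-fold the hip count was 6, beside 51.8%. In the knee pair, 3 members were called, against 5 with scaling by library size alone (Fgf1 and Fgf7 added), 4 with the trend removed, 6 at 1.5-fold and 8 with intervals at any size (all above 0, as 31.6% of all genes were), beside 17.3%, 14.5%, 30.2% and 61.6% of all genes. Library size alone moved the median of all knee genes from 0.01 to 0.20 and the share of calls that were higher from 56.4% to 71.3%, and removal of the trend moved that share to 64.8%. In the hip a minimum of 10 counts in each library moved it from 53.7% to 66.0%, and removal of the trend moved it to 47.3%. Over both pairs, 0 members passed under edgeR's quasi-likelihood test with and without the replicate block. Without the replicate block, Fgf9 was at -0.45 and Fgfr4 at -0.07, the opposite sign to the blocked fit. Of all genes, 0 passed in the edgeR fit, 46 in DESeq2, 3 with library size alone and 44 without the filter on low counts. Leaving out a library left no pair to compare. The causes of these shifts were not tested. Depth limits Fgfr4 in the knee control, with 10 counts, and Fgf18 in the hip deficient library, with 27.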
